A study of Mus musculus with 8 samples.

Results

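Haematopoietic progenitors were sought among CD45.2-positive cells sorted from the brain, as cells that held transcripts of both Kit, the receptor for stem cell factor, and Cd34, a surface sialomucin of early blood cells. In adult mice such cells live mainly in the bone marrow, where stem cells give rise to progenitors that begin to express genes of the lymphoid, granulocyte-monocyte or erythroid and megakaryocyte lineages before they commit to one of them. Small numbers circulate in blood and are also found in tissues, and the skull marrow lies next to the meninges. Of 46314 cells with a single hashtag, 538 met the rule (1.16%). The rule asked for at least 1 unique molecular identifier (UMI, which marks 1 captured transcript) of each gene. It also asked for less than 1% of UMIs in the azurophil granule genes Elane, Mpo and Prtn3, fewer than 10 UMIs of the mast cell proteases Mcpt4, Cma1 and Tpsb2, fewer than 3 of the basophil protease Mcpt8, and none of Cd79a or Cd3e. Since these genes chose the cells, their levels are given as a description and no test of them is reported. Kit lies on chromosome 5 from 75574916 to 75656722 and Cd34 on chromosome 1 from 194938819 to 194961279, both on the plus strand of GRCm38.

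The cells came from 8 libraries of the 10x Genomics 5′ kit, 1 for each genotype (WT or App NL-G-F) and each of 4 treatments: none (control), acute or chronic colitis, and food allergy. App NL-G-F mice carry a humanized amyloid-β sequence with the Swedish, Arctic and Iberian mutations in the endogenous App gene, and WT mice were C57BL/6J. Mice with acute colitis drank 2% dextran sulfate sodium (DSS) over 7 days, and those with chronic colitis went through 3 rounds of 5 days at the same 2%. Food allergy was raised against ovalbumin. All mice were 16 weeks old per the labels. All mice received an antibody against CD45 into the blood shortly before perfusion, but this label leaves no trace in the counts, so cells in vessels and cells in tissue cannot be told apart here. Each library held cells with 3 or 4 hashtags (30 hashtag groups in all, of which 28 had at least 100 cells), and these groups served as the samples of a condition. The sources used here do not say which mouse carried which hashtag, and the study states fewer mice than there are hashtag groups for App NL-G-F chronic colitis, so that some groups may share a mouse and its p-values may then be too small. Further, library and condition cannot be told apart, and the p-values below measure only the spread between hashtag groups.

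Cells of the 8 libraries had median depths of 2647 to 3968 UMIs, while the 538 cells had a median of 11546 UMIs and 3393 genes. A gate on single UMIs is met more often in deep cells. When every cell was thinned to 1500 UMIs before gating, 79 of 41849 cells passed (0.189%, 95% exact interval 0.149 to 0.235%). Of the 538 cells, 195 held only 1 UMI of Kit and 147 only 1 of Cd34. Both genes had a UMI in 0.237% of Cd3e-positive T cells (median 3055 UMIs), 0.150% of mature B cells (median 2529 UMIs) and 0.154% of neutrophils (median 7492 UMIs), which should lack them. At the azurophil limit, the highest cell inside held 0.9997% of its UMIs in Elane, Mpo and Prtn3 (63 members held 0.5% or more) and the lowest outside 1.004% (94 cells outside lay under 2%), so the limit cut through a continuous range. A barcode sequence was shared between libraries by 5.20% of members and 5.59% of all cells, and no barcode was shared by members of different libraries.

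The label held for most of these cells, but not for all of them. The 4 genes H2-Aa, H2-Ab1, H2-Eb1 and Cd74, which encode MHC class II chains and their invariant chain, made up at least 1% of UMIs in 63 members (11.7%), with a median of 5.66%. In the other 475 members the median was 0.00514%, and only 23 of them lay between 0.1% and 1%. The 63 class II-high members had a median of 1 UMI of Kit and 1 of Cd34, and 82.5% of them had a single UMI of Cd34, against 20.0% of the class II-low members. Xcr1, a chemokine receptor of type 1 conventional dendritic cells, had a UMI in 31 of the 63 and in none of the 475. Batf3, a transcription factor these dendritic cells need, had a UMI in 49 of the 63 and in 8 of the 475. Clec9a, a receptor of the same cells for actin of dead cells and chosen after its values were seen, had a UMI in 46 and 15. By contrast, Adgrg1 was detected in 3 of the 63 and Myb in 9, against 397 and 416 of the 475. The class II-high members thus went against the label, and the comparisons below were repeated without them. The 1% limit that divides them was set after the data were seen.

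**Figure D1:**
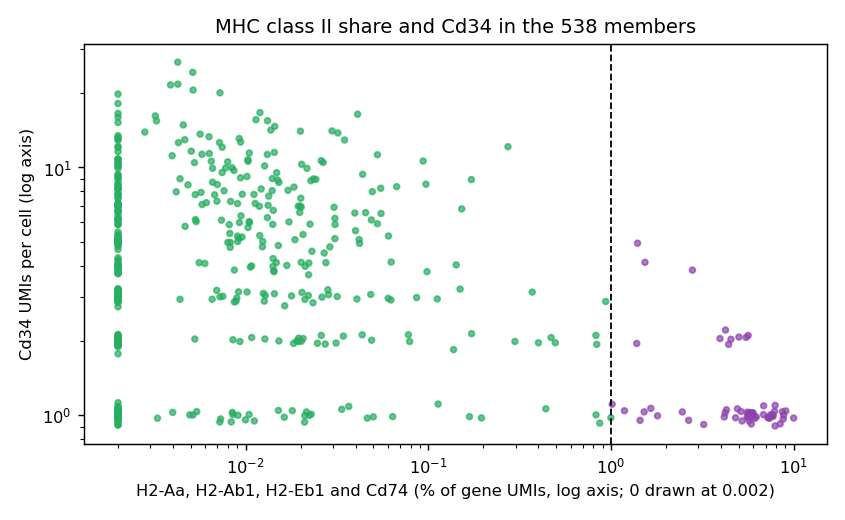
Each point is 1 of the 538 members, with its share of UMIs in 4 MHC class II genes on the x axis and its Cd34 UMIs on the y axis, both on log axes with a small vertical scatter added. The dashed line marks 1%. The 63 cells to its right (purple) nearly all hold 1 or 2 Cd34 UMIs, and the 475 cells to its left (green) reach far higher.

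Several genes of marrow progenitors were high in the members. In CPM, a gene's UMIs scaled to a fixed total per sample, and over the 18 hashtag groups with at least 10 members, Adgrg1, an adhesion receptor of stem and progenitor cells, ranged from 148 to 498 CPM with a median of 264 CPM, against 16.2 CPM over all other cells. Lmo2, a bridging factor of the early blood transcription complex, had a median of 334 CPM against 56.9 CPM, and Myb, a factor of proliferating progenitors, 266 CPM against 71.8 CPM. Angpt1, a ligand made by stem cells, had a median of 71.0 CPM against 4.13 CPM. Adgrg1, Lmo2, Angpt1, Adgrl4, Egfl7, Rab38, Muc13, Spns2, Tspan4, Krt18, H1fx, Cdk6, Ifitm1, Myc, Nme4, Dipk1b, Plppr3, Osbpl1a, Dntt and Flt3 were the 20 genes, gate genes aside, with the highest ratio of members to other cells at 50 CPM or more. By list, the 18 pan-progenitor genes summed to 2818 CPM in members and 695 CPM in all other cells, with 17 of them higher in members. The 18 stem cell genes summed to 757 against 767 CPM, although 14 of them were higher in members, since Ly6a and Txnip, which many lymphocytes express, made up most of the sum in other cells (374 and 310.0 CPM). The lymphoid-primed genes (603 against 711 CPM, 6 of 12 higher) and the erythroid and megakaryocyte genes (476 against 549 CPM, 9 of 16 higher) summed to less in members than in other cells. The comparison has no test, since the cells were chosen by their own counts.

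Most markers of other cells were lower in members than in the other cells. Members had 6.75 CPM summed over 6 T cell markers, against 2726 CPM in T cells, and 0.422 CPM over 5 fibroblast markers, of which 3 had no UMI. The 5 erythroid markers summed to 7.31 CPM, against 734 CPM in all other cells, and the 7 B cell markers to 138 CPM against 4004 CPM in pro-B cells. The 6 macrophage and microglia markers summed to 36.4 CPM against 518 CPM in all other cells, and the 6 markers of NK cells and innate lymphoid cells to 181 CPM against 498 CPM. The 5 endothelial markers were the exception, at 37.8 CPM against 26.4 CPM, and the 5 mast cell markers, which include Kit itself, summed to 257 CPM against 390 CPM. The 8 neutrophil markers summed to between 1.81 and 15144 CPM by hashtag group. Of the S100a8 and S100a9 UMIs in members, 98.5% lay in 9 cells spread over 6 hashtag groups. Cells with several hashtags were left out, among them 24 that met the gate, but doublets within 1 hashtag were not removed, and their part in these values was not tested.

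Members were found in every library. Their share was 0.860% in WT control (58 of 6747 cells, 95% exact interval 0.653 to 1.11%), 0.380% in WT acute colitis (17 cells), 1.84% in WT chronic colitis (98 cells) and 0.785% in WT food allergy (36 cells). In App NL-G-F mice it was 1.01% in control (68 of 6700 cells, 0.789 to 1.28%), 1.94% in acute colitis (122 cells), 1.20% in chronic colitis (69 cells) and 1.08% in food allergy (70 cells). These intervals cover counting error only. The higher shares came from few hashtag groups: hashtag 7 of App NL-G-F acute colitis held 107 of its 122 members (3.33% of 3218 cells), and hashtag 6 of WT chronic colitis 88 of its 98 (2.63% of 3340 cells). Without these groups the shares of the 2 libraries were 0.490% and 0.503%. The same 2 groups were the deepest of the 30, with medians of 5418 and 4678 UMIs per cell, and the next had 4260.5. After thinning to 1500 UMIs, 13 of 5746 cells passed in App NL-G-F acute colitis and 12 of 5991 in App NL-G-F control. In WT chronic colitis 19 of 5003 thinned cells passed, against 10 of 5959 in WT control. The part of depth in the shares of single hashtag groups was not tested. In WT control, hashtag 5 held 38 of 58 members, and hashtag 4 held none among its 920 cells (95% exact upper limit 0.400%).

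**Figure D2:**
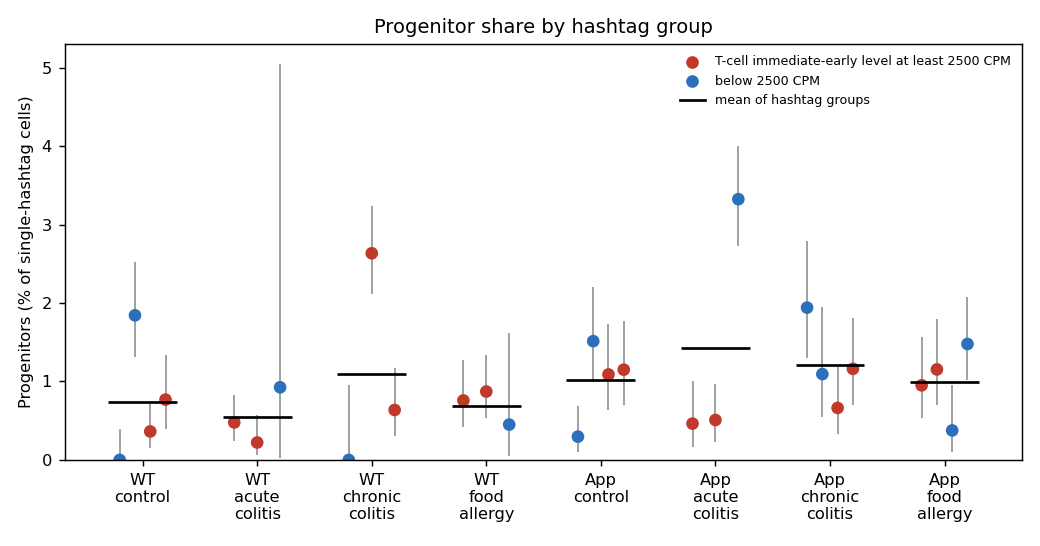
Each point is 1 hashtag group with at least 100 cells, placed by condition, and shows members as a percentage of its cells with a 95% exact interval. Colour gives the summed level of 10 immediate-early genes in its T cells, and black lines are means. The groups of each comparison overlap, and 1 group stands high in App acute colitis (3.33%) and in WT chronic colitis (2.63%). These high groups also had the highest median UMIs per cell (5418 and 4678).

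No difference in the share between conditions was larger than the spread between hashtag groups. Control groups had a mean share of 0.744 ± 0.798% (SD, n = 4) in WT mice and 1.01 ± 0.513% (n = 4) in App NL-G-F mice, a difference of 0.269 percentage points (p = 0.629, adjusted p = 0.943, exact two-sided permutation test). Acute colitis exceeded control by 0.419 percentage points in App NL-G-F mice (p = 0.743) and lay 0.202 percentage points below it in WT mice (p = 0.800), by the same exact test. Chronic colitis exceeded control by 0.347 percentage points in WT mice (p = 0.657) and by 0.202 percentage points in App NL-G-F mice (p = 0.571), again by the exact permutation test. All 8 comparisons had an adjusted p of 0.943, and the smallest p that the comparisons within a genotype or between controls allow is 0.0286. App NL-G-F groups averaged 1.14 ± 0.760% (n = 15) and WT groups 0.766 ± 0.737% (n = 13; permutation test, p = 0.201). Without hashtag 7 the difference of App NL-G-F acute colitis from control turned to -0.527 percentage points, and without hashtag 6 that of WT chronic colitis turned to -0.425. Without hashtag 5 of WT control, the differences of WT acute colitis and WT food allergy turned to 0.164 and 0.316, and none of these passed the test.

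Across the 28 hashtag groups, the share of progenitors rose with that of neutrophil precursors, the cells with at least 1% of UMIs in the azurophil genes (Pearson r = 0.76, permutation p = 2e-05, adjusted p = 1e-04; Spearman rho = 0.70, p = 5e-05). Of the 751 neutrophil precursors, 255 held Kit and Cd34 and met the other limits, so only the azurophil limit set them apart from members. With the mean of each library subtracted r was 0.79 (p = 1e-05, the smallest that 100000 permutations can give), without the 2 groups farthest from the median it was 0.77, and without the class II-high members it was 0.78. The share also rose with that of erythroid precursors (r = 0.51, permutation p = 0.0132, adjusted p = 0.0331; rho = 0.45), and with library means subtracted r was 0.51. Without the 2 farthest groups this r fell to 0.37. The relations with pro-B cells (r = 0.29, adjusted p = 0.169), fibroblasts (r = -0.29, adjusted p = 0.169) and the immediate-early level of T cells (r = -0.24, adjusted p = 0.221) did not pass the test by permutation. Without the class II-high members the rank relation with fibroblasts passed it (rho = -0.43, adjusted p = 0.0416, permutation), while Pearson's r did not (r = -0.33, adjusted p = 0.0818). With all 30 groups, the smallest of 31 cells, the rank relation with pro-B cells passed it (rho = 0.45, adjusted p = 0.0225, permutation), while Pearson's r did not (r = 0.33, adjusted p = 0.127). Over the same 30 groups the relation with neutrophil precursors was weaker (r = 0.63, rho = 0.51). The 5 relations share their cells' denominator and the depth of each group.

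**Figure D3:**
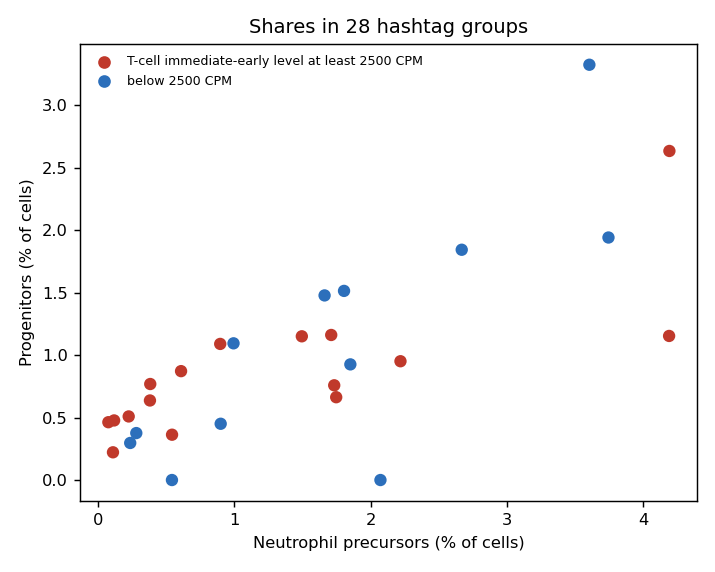
Each point is 1 of 28 hashtag groups, with neutrophil precursors as a percentage of its cells on the x axis and progenitors on the y axis, coloured by the immediate-early level of its T cells. The shares rise together (r = 0.76).

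Lineage genes divided the 475 class II-low members. Dntt, the terminal transferase of lymphoid-primed cells, had a UMI in 130 of them (27.4%), and Gata1, the master factor of erythroid, megakaryocyte and mast cells, in 54 (11.4%), yet no cell had a UMI of both. Flt3, a cytokine receptor of lymphoid-primed progenitors, was detected in 92.3% of the Dntt-positive members and in 50.1% of the others, and in 5.56% of the Gata1-positive members against 68.9% of the others. Klf1, an erythroid factor, was detected in 40.7% of Gata1-positive members and in 2.85% of the others. Csf1r, the receptor for macrophage colony-stimulating factor, was detected in 99 members, of which none held Gata1 and 26 held Dntt. F13a1, a gene of the monocyte line, was detected in 51.5% of the Csf1r-positive members and in 8.78% of the others. Csf1r-positive members were deeper (a median of 18605 against 9929 UMIs), whereas Dntt-positive and Gata1-positive members had about the depth of the rest (10584 against 11609 and 11245 against 11547 UMIs).

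The summed stem cell list barely differed by Dntt, but it did differ by Gata1, Csf1r and Mpo. Hlf, a factor of stem cells, was detected in 187 of the 475 (39.4%), among them 44 of the 130 Dntt-positive members (33.8%), 11 of the 54 Gata1-positive members (20.4%) and 29 of the 66 Cpa3-positive members (43.9%). Flt3 was detected in 60.4% of Hlf-positive and 62.5% of Hlf-negative members. The stem cell list summed to 818 CPM in Dntt-positive and 824 CPM in Dntt-negative members, and to 1206 CPM in Gata1-positive and 779 CPM in Gata1-negative members. It came to 266 CPM in Csf1r-positive and 1071 CPM in Csf1r-negative members. By Mpo, which the gate limits, it came to 547 CPM in positive and 1372 CPM in negative members. Csf1r was detected in 7.49% of Hlf-positive members and in 29.5% of the others. Summed over the list, the other erythroid and megakaryocyte genes came to 1851 CPM in Gata1-positive members and 361 CPM in Gata1-negative members, and the other lymphoid-primed genes came to 890 CPM in Dntt-positive and 298 CPM in Dntt-negative members. The other granulocyte-monocyte genes came to 3343 CPM in Csf1r-positive and 1095 CPM in Csf1r-negative members. Cpa3, a mast cell protease that early progenitors also express, was detected in 66 members, of which 21 held Gata1 and 2 held Dntt. Mki67, a gene of dividing cells, was detected in 184 members, in which the stem cell list summed to 545 CPM, against 1153 CPM in the others.

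Detection was also compared between the 3 largest hashtag groups, as a description. With class II-low members thinned to 5000 UMIs, which left 445 of 475, Mpo, which the gate itself limits, was detected in 36 of 102 cells of hashtag 7 of App NL-G-F acute colitis (35.3%, 95% exact interval 26.1 to 45.4%). It was detected in 27 of 38 cells of hashtag 5 of WT control (71.1%, 54.1 to 84.6%) and in 33 of 69 cells of hashtag 6 of WT chronic colitis (47.8%, 35.6 to 60.2%). Gata1 was detected in 14 of the 102 cells of the first of these groups (13.7%) and in none of the 69 of the last, whose upper limit was 5.21%. Before thinning it was detected in 20 of 105 (19.0%) and in 3 of 83 (3.61%) cells of these 2 groups. Dntt was detected in 26.5%, 31.6% and 14.5% of the cells of the 3 groups in that order, with intervals that overlap. Each group is 1 sample, so these shares were not tested between conditions.

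**Figure D4:**
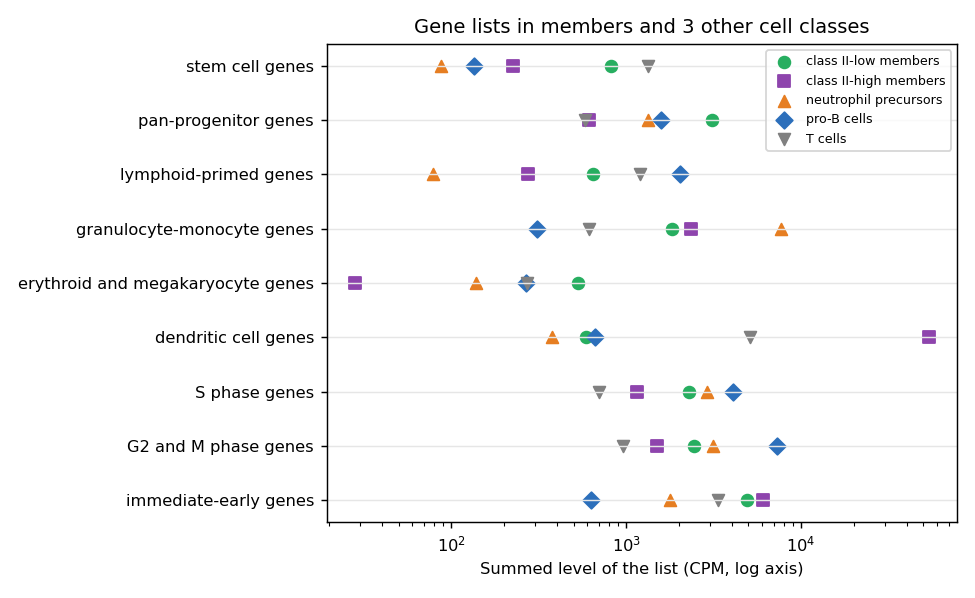
Each point is the summed level of a gene list in a cell class, in CPM on a log axis. Class II-low members have the highest level of pan-progenitor genes (3089 CPM) of the classes shown, and class II-high members the highest level of dendritic cell genes (53610 CPM). The dendritic cell list includes H2-Aa, H2-Ab1, H2-Eb1 and Cd74, which define the class II-high members, so this high level follows largely from that choice.

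Against the neutrophil precursors of the same hashtag groups (15 groups, edgeR's quasi-likelihood test with Benjamini-Hochberg adjustment), members had 2307 genes higher and 1938 lower of 8150 tested (28.3% and 23.8%). Both classes were gated on their own counts, and the share of azurophil genes divided them. Among class II-low members, the granulocyte-monocyte list summed to 2303 CPM in those with a UMI of Mpo and 911 CPM in the rest. By the same split, the stem cell list came to 547 and 1372 CPM and the erythroid and megakaryocyte list to 303 and 984 CPM. The lymphoid-primed list came to 580 and 769 CPM, and the S phase list to 2504 and 1867 CPM. The pan-progenitor list barely differed (3102 and 3064 CPM). The tests of these lists are thus not independent of the gate, which also asked members for Kit and Cd34. Gate genes made up 2 of the genes higher and 3 of those lower, and they are left out of the counts by list. All 13 stem cell genes tested were higher, as were 13 of 16 pan-progenitor genes, all 7 lymphoid-primed genes and 8 of 9 erythroid and megakaryocyte genes, and 14 of 16 granulocyte-monocyte genes were lower. The medians of the stem cell, lymphoid-primed, erythroid and megakaryocyte, and granulocyte-monocyte lists were 3.80, 2.31, 3.18 and -1.45 on the log2 scale, and that of all genes was 0.04. Hlf lay between 10.8 and 242 CPM in members (median 60.5) and between 0 and 7.52 CPM in neutrophil precursors, with no overlap (log2 difference 3.58 ± 0.23 SE, adjusted p = 6.06e-13). Flt3 lay between 85.5 and 188 CPM against 4.58 to 23.6 CPM (3.41 ± 0.13, adjusted p = 2.7e-17). Dntt had a median of 154 CPM in members, and in neutrophil precursors its highest value was 0.471 CPM. On the other side, Cebpe, a factor of granule formation in maturing neutrophils, had a median of 0 CPM in members and lay between 31.9 and 165 CPM in neutrophil precursors. Ms4a3, a gene of committed granulocyte-monocyte progenitors, lay between 3.65 and 144 CPM in members against 318 to 1011 CPM. Fcnb, Cldn15, Nrg1, Chil3, Abca13, Ncam1, Camp, Dmkn and C3 were also among the 10 genes with the largest fall, and Car1, Nkx2-3, Esam, Cd74, Ifi205, Gm5111, Gcsam and 1700003C15Rik among the 10 with the largest rise. Cd74 is among the genes that define the class II-high members, and without these members it was not called.

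In the same comparison, S phase genes were lower in members. Of 14 S phase genes 13 were lower in members and none higher, and of 14 genes of G2 and M phase 4 were lower and 2 higher. All 10 immediate-early genes were higher. For Fos and for Nr4a1, members of 9 of the 15 groups lay above the median of the neutrophil precursors over all groups. Of the cytokine and danger receptors 7 of 12 were lower, among them Csf2ra, a chain of the receptor for granulocyte-macrophage colony-stimulating factor (median 61.7 against 176 CPM; -1.64 ± 0.13), while Il1r1, the interleukin-1 receptor, was higher (median 26.5 against 0 CPM; adjusted p = 2.6e-11, edgeR). Of the homing genes, Itga4, a chain of the integrin that binds Vcam1, was higher (0.71 ± 0.10), and Cxcr4, Ccr2 and Itgal were lower. Of 12 dendritic cell genes 11 were higher, but without the class II-high members 3 of 9 were.

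Against pro-B cells (12 groups, the same test), members had 1976 genes higher and 1897 lower of 7063 tested (28% and 26.9%), of which 5 and 1 were gate genes. Vpreb1 and Igll1, chains of the surrogate light chain, chose the pro-B cells. Of 13 granulocyte-monocyte genes tested 12 were higher, and of 11 stem cell genes 10. Ctsg, an azurophil granule protease, lay between 229.6 and 876 CPM in members and reached at most 11.4 CPM in pro-B cells. Of the lymphoid-primed genes 4 were higher and 6 lower of 11: Ebf1, a factor that commits cells to the B line, reached at most 2.97 CPM in members against 663 to 1238 CPM in pro-B cells, and Rag1, Rag2, Il7r and Lck were lower too. Dntt was lower by less (medians of 177 against 250.5 CPM; -0.78 ± 0.24, adjusted p = 0.0092, edgeR), and Flt3 was higher (medians of 124 against 5.63 CPM; 4.19 ± 0.25). All 14 genes of G2 and M phase and 12 of 14 S phase genes were lower in members, and all 10 cytokine and danger receptors tested were higher. The largest rises also included Rab38, Sdsl, Slc22a3, Myct1, Gm11505, Angpt1, Gng11 and Hlf, and the largest falls Igll1, Vpreb3, Gm30211, Mzb1, Pou2af1, Vpreb2, Lef1 and Cecr2.

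Between conditions, few genes of the members passed the test. The fit with genotype and treatment used the 18 hashtag groups with at least 10 members, of which acute colitis had 1 in each genotype. No gene of 6010 passed an adjusted p of 0.05 for acute colitis, chronic colitis or food allergy against control in either direction (0% each) with edgeR. At an unadjusted p under 0.05 there were 160, 195 and 223 genes, and DESeq2 called 0 in each. For genotype 0 genes were higher in App NL-G-F mice (0%) and 3 lower (0.0499%) with edgeR, of 382 at an unadjusted p under 0.05, and DESeq2 called 0 and 1. Gapdh, a glycolytic enzyme whose processed pseudogenes can take some of its reads, lay between 540 and 729 CPM in 11 App NL-G-F groups (median 682) and between 951 and 1391 CPM in 7 WT groups (median 1166), with no overlap (-0.78 ± 0.10, adjusted p = 0.00106, edgeR). Naa10, a subunit of an N-terminal acetyltransferase, lay between 0 and 33.6 CPM against 43.7 to 77.6 CPM (-1.38 ± 0.22, adjusted p = 0.0114, edgeR), and Gm21887 had medians of 33.6 and 75.7 CPM (-1.20 ± 0.18, adjusted p = 0.00599, edgeR). The same genes were lower in App NL-G-F libraries in other classes: Gapdh lay between 333 and 479 CPM in their T cells against 634 to 1036 CPM in WT T cells, and between 580 and 737 CPM against 988 and 1559 CPM in pro-B cells. With libraries as samples, Gapdh (adjusted p = 0.221) and Naa10 (adjusted p = 0.174, edgeR) did not pass the test, and without the class II-high members Naa10 did not (adjusted p = 0.550, edgeR). With only the hashtag groups of at least 20 members, none of the 3 genes passed it.

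The hashtag groups differed in immediate-early genes, which cells switch on within minutes of a stimulus or of handling. The T cells of 14 groups had 781 to 1862 CPM summed over 10 such genes, and those of 16 groups had 3304 to 6773 CPM. Members of the first set had 285 to 698 CPM and members of the second 3924 to 22618 CPM, with no overlap. Fos lay between 7.60 and 86.6 CPM in the 6 low groups with at least 10 members and between 1185 and 2788 CPM in the 12 high ones. Nr4a1, an orphan receptor induced by signalling, reached at most 5.06 CPM in the low groups and lay between 285 and 1713 CPM in the high ones. Of the 6 low groups 1 was WT and 5 were App NL-G-F, and of the 12 high ones 6 were of each genotype. The low set held 2 of the 225 fibroblasts and the high set 223, and their part in the result was not tested. Over all 30 groups, of the 254 members in the low set 6 were class II-high (2.36%), and of the 284 in the high set 57 (20.1%).

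**Figure D5:**
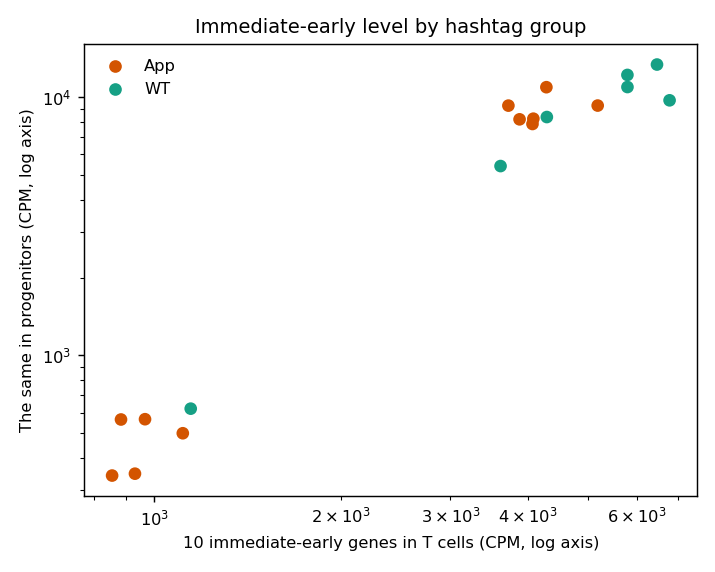
Each point is 1 of the 18 hashtag groups with at least 10 members, with the summed level of 10 immediate-early genes in its T cells on the x axis and in its progenitors on the y axis, in CPM on log axes, coloured by genotype. The groups form 2 separate clusters, the lower reaching 621 CPM and the higher starting at 5412 CPM in progenitors.

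With the log2 level of immediate-early genes in the T cells of each group as a term of the fit, 231 genes of members rose with it (3.84%) and 65 fell (1.08%), with edgeR. Without hashtag 5 of WT control, the only WT group among the low ones, 96 rose and 25 fell, and without hashtags 5 or 6 of App NL-G-F control 40 and 34 fell. All 10 immediate-early genes rose, from 1.42 ± 0.07 per doubling for Ier2 to 3.19 ± 0.24 for Nr4a1 on the log2 scale. The T cell level in the fit sums the same 10 genes, and members were already seen to divide by it. Their rise is thus not a separate result. Of 12 dendritic cell genes 7 rose, 4 of 16 pan-progenitor genes fell (Sox4, Adgrg1, Lmo2 and Lyl1), and 3 of 9 stem cell genes fell (Hlf, Txnip and Angpt1). Without the class II-high members 102 genes rose and 10 fell. All 10 immediate-early genes were still among them, no dendritic cell gene was called, and of the pan-progenitor and stem cell genes only Sox4 and Txnip fell. Atf3, Cd83, Cxcl2, Areg, Cd209a and Cxcl16 also rose among the 10 largest in all members, and Snhg20, Gm19590, Rtp4, Gng11, Msrb2, Cfl2, Aspm, Gimap1 and Cenpf fell.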

How the data were processed

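The authors deposited unfiltered UMI counts per gene and barcode, without normalization, made with Cell Ranger 6.1.2 on GRCm38 per the labels (the file headers name version 4). From these counts, barcodes with at least 500 gene UMIs, 200 genes, at most 5% mitochondrial UMIs and a top hashtag count of at least 50 and 3 times the second were kept. Members and gene lists were chosen with earlier results of these data known, and the class II limit, and the immediate-early coefficient as a comparison of its own, after the data were seen. Barcodes with several hashtags were removed as doublets. Shares were compared over hashtag groups of at least 100 cells by exact permutation tests, with p-values adjusted over 8 comparisons, and relations with 100000 permutations. UMIs were summed per hashtag group with at least 10 cells and fitted with edgeR 4.0.16 (TMM, filterByExpr) in R 4.3.3, with the hashtag group as a block between classes. DESeq2 1.42.0 was an alternative. SE values were derived from the log2 difference and its F statistic. The genes named were those of the lists, the 10 called with the largest rise and fall in each fit, and the 20 with the highest ratio of members to other cells (10 CPM added, at least 50 CPM in members); Clec9a was named after its values were seen. Some genes that this rule names are not reported here. Alternatives were other gates, filters, tools and samples, and each hashtag group left out in turn. The fits were tested on simulated data. Positions came from GENCODE vM21. Each library held 23358325 to 46626411 gene UMIs in the cells kept. Intervals cover counting error only.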

Additional observations from a re-analysis of the deposited data

How the results depend on the processing

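Between classes more genes were higher than lower in members with DESeq2, without a filter, with libraries as samples and without class II-high members. At least 2 UMIs of Kit left 343 progenitors, and thinning to 1500 UMIs left 79. The difference in share of WT food allergy from control, -0.050 percentage points as reported, was 0.019 with at least 1000 gene UMIs, 0.085 with a 10-fold hashtag margin and 0.020 without class II-high members. That of App NL-G-F food allergy, -0.023 as reported, was 0.070 over whole libraries and 0.064 without class II-high members, and that of App NL-G-F acute colitis was -0.026 after thinning. Leaving out 1 hashtag group in turn gave differences from control of -0.527 to 0.904 (App NL-G-F acute), -0.040 to 0.386 (App NL-G-F chronic), -0.262 to 0.181 (App NL-G-F allergy), -0.450 to 0.164 (WT acute), -0.425 to 0.892 (WT chronic) and -0.298 to 0.316 (WT allergy). None passed the test.

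Without a filter on low counts, 39 genes were higher and 93 lower in App NL-G-F mice, 25 and 34 in acute colitis, 15 and 31 in chronic colitis, and 43 and 42 in food allergy. Genes lower in App NL-G-F mice numbered 1 with DESeq2, 1 with at least 20 members and 1 with libraries as samples. The gene called with at least 20 members was none of the 3 reported. In acute colitis 1 gene was higher with at least 20 members. Without class II-high members 6 were (Camp, Ngp, Ltf, Olfm4, Wfdc21 and Tmem158), where 1 group, hashtag 7 of App NL-G-F acute colitis, stood for the condition. Leaving out 1 group in turn gave 0 to 6 genes higher in acute colitis, 0 to 3 in food allergy and 2 to 6 lower in App NL-G-F mice. The 6 and the 3 arose only without hashtag 4 of WT acute colitis, which left the same single group for acute colitis, and each other leave-out gave 0. The 6 lower in App NL-G-F mice arose without hashtag 5 of WT control, and 5 were lower when either acute colitis group was left out. With the immediate-early level 96 to 278 genes rose and 25 to 70 fell, the fewest of each without hashtag 5 of WT control, and without class II-high members 102 rose and 10 fell. After thinning, 316 genes were higher and 317 lower against neutrophil precursors and 233 and 250 against pro-B cells, of 1311 and 868 tested. The fits as reported had tested 8150 and 7063 genes, and the cause of the lower counts was not tested. Classes were paired within hashtag groups. Between conditions, no paired analysis was possible, since each condition was a separate library and the sources used here link no samples of different conditions. The alternatives without class II-high members were chosen after seeing the data. Low depth limits absences: a gene without a UMI in a member was not shown to be off.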
